A study of Rattus norvegicus with 24 samples.

Results

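The features described here lie in a fixed window of rat chromosome 6 taken to hold the imprinted Dlk1-Dio3 locus, where the first one starts at 133552821 and the last at 133898795. The window was chosen because a run of small features in it was lower with fentanyl, so every fentanyl value below is a description and none is a test. Of 104 features in the window, 87 had at least 10 counts summed over 24 libraries, out of 20490 such features among 32552 in the whole table. They were split by length into 69 short features under 100 nt, of 82, and 18 longer features, of 22. Of the 17 left out, 7 had 0 counts and 10 had 1 to 9. The member just inside the limit had 11 counts and the feature just outside had 9. The split by length fell between a feature of 99 nt and one of 103 nt. No feature of the table could be paired with a gene symbol, because the RefSeq gene table used here gives no Ensembl identifiers. Features are therefore named by their start position in the deposited tables, whose genome build is not given in the sources used here.

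At this locus the paternal and the maternal chromosome are used differently. Protein-coding genes such as Dlk1, Rtl1 and Dio3 are read from the paternal copy, and long noncoding RNAs such as Meg3 are read from the maternal copy. The maternal transcription carries clusters of box C/D small nucleolar RNAs (snoRNAs), which are released from introns, and of microRNAs (miRNAs), which are cut from longer precursors, and it is known to be high in brain neurons.

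The study asked how fentanyl taken by choice against food, and its withdrawal, changed transcription in the reward circuit of male and female Sprague Dawley rats. Tissue punches of the nucleus accumbens (NAc), which receives dopamine input, and of the ventral tegmental area (VTA), which holds dopamine neurons, were sequenced as total RNA after removal of ribosomal RNA. The NAc groups held 3 female saline, 4 female fentanyl, 3 male saline and 4 male fentanyl rats. The VTA groups held 2 female saline, 3 female fentanyl, 2 male saline and 3 male fentanyl rats, and 10 rats gave a library of each region. The rats carried no named transgene, and the labels used here give no age or dose. Each punch mixes cell types, so fewer cells of a type and less RNA per cell cannot be told apart, and the cell type markers chosen by symbol were not analysed here because no identifier could be paired with a symbol.

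An NAc library held between 3.46 M and 5.01 M counts (M, mega) in all, a VTA library between 4.49 M and 6.30 M, and the 87 members took 0.0529% to 0.128% of them. Libraries held 50 to 67 of the short and 12 to 18 of the longer features with a count. The share of counts on mitochondrial features was higher with fentanyl in NAc females and in the VTA, but not in NAc males. In the NAc it was 22.1% to 26.1% in saline females and 29.2% to 36.7% in fentanyl females, and 24.9% to 31.3% and 26.9% to 28.4% in saline and fentanyl males. In the VTA it was 17.6% to 21.0% in all saline and 21.3% to 26.9% in all fentanyl libraries. One library, VTA female fentanyl replicate 2, stood apart from the other VTA libraries at the feature starting at 133552821, and its effect is given below.

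In RefSeq's assembly GRCr8, used here for names and order alone, 198 genes lie from Dlk1 to Dio3. They include 84 snoRNA genes, 59 miRNA genes, 6 long noncoding RNA genes and 5 protein-coding genes. The snoRNA genes form a block: 16 miRNA genes come before the first of them and 43 after the last. The table gives 100 mature sequences from 58 of the miRNA genes, with 93 distinct seeds, the bases 2 to 8 that pair with targets. Only 6 seeds were shared, by 13 sequences. The sequences below show 3 of these families, to let a reader see what the small features of such a locus encode; capitals mark the seed, and no deposited value could be tied to any of them.
rno-miR-410-5p: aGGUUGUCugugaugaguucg
rno-miR-494-5p: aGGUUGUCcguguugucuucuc
rno-miR-496-5p: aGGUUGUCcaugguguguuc
rno-miR-381-3p: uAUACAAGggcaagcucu
rno-miR-539-3p: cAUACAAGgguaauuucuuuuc
rno-miR-376b-5p: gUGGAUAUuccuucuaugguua
rno-miR-376c-5p: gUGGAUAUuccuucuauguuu

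The members lay in a few stretches, mostly on the plus strand. A new stretch was begun where the starts of neighbouring features lay more than 8000 nt apart. A longer feature of 1608 nt at 133552821 to 133583751 came first. A short feature of 80 nt at 133662524 stood 5451 nt, start to start, before a spliced feature of 583 nt at 133667975 to 133676907. Single short features and pairs followed, among them one of 94 nt at 133682957. A minus-strand feature of 4815 nt spanned 133711154 to 133716847. All 5 features lying inside its exons, 4 of them on the plus strand, had 0 counts. How reads over both features were assigned is not given in the sources used here.

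Next came a tandem stretch of 28 short features from 133768226 to 133798358, all on the plus strand and 72 to 95 nt long, with a median length of 86 nt. Of the 27 steps between their starts, 23 were 849 to 912 nt and 4 were 1771 to 2980 nt, with a median of 895 nt. The last stretches were weak. The one from 133820661 to 133835425 held 11 members with 586 counts in all. The one from 133857700 to 133898905 held 18 short and 14 longer members with 3468 counts, its longer members being 103 to 137 nt.

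A few features carried most of the counts. The 583 nt feature took 54758 of the 66107 counts of the longer members, or 82.8%, and 55.4% of all member counts. Per length it was also the highest, at 834 CPM per kb of feature, where CPM is the count per M of scaled library total. The 80 nt feature before it was the highest short one at 541 CPM per kb, against a median of 24.9 CPM per kb over the 69 short features and 6.04 over the 18 longer ones. The tandem stretch took 57.6% of the 32684 short counts. Its members were far from equal: summed counts ran from 43 to 2570, and the 74 nt feature at 133770706 led with 330 CPM per kb. Of the short features, 27 had only 10 to 99 counts over all 24 libraries, and a single such feature supports no comparison at this depth.

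**Figure D1:**
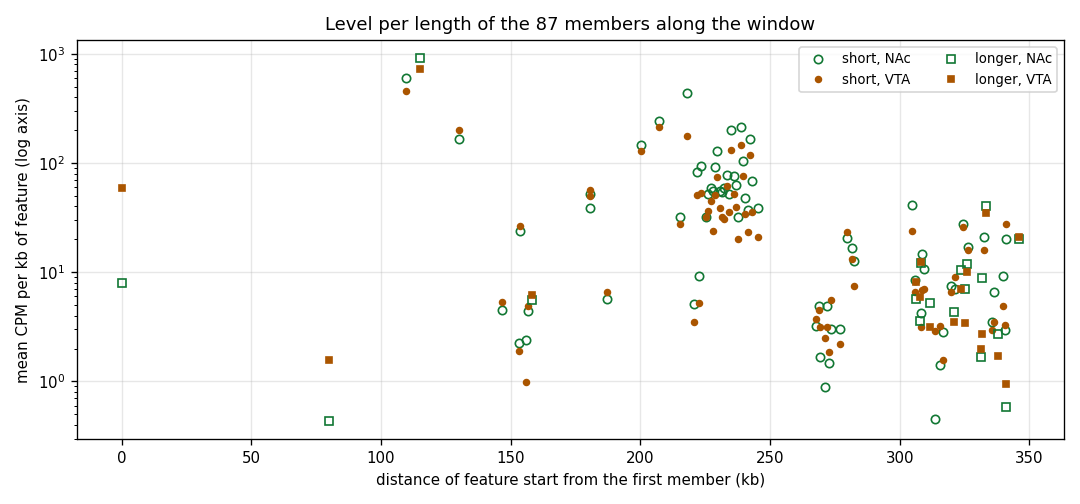
Mean level per kb of feature (vertical log axis) of the 87 members against the distance of their start from the first member (horizontal axis, kb), with open green symbols for the NAc, filled brown symbols for the VTA, circles for short and squares for longer features. The 583 nt feature is the highest. All 28 features of the tandem stretch are lower in the mean of 10 VTA libraries than in that of 14 NAc libraries. In the 10 rats with both regions, the feature at 133778119 had 2.49 CPM in the NAc and 2.59 CPM in the VTA.

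The comparison of VTA with NAc, paired by rat in 10 rats, was not used in choosing the members. The first feature of the window, of 1608 nt at 133552821, was far higher in the VTA, and the tandem stretch was lower there. Fold changes, standard errors and adjusted p-values come from edgeR's quasi-likelihood test with Benjamini-Hochberg adjustment over all genes tested. Of all 14795 genes tested, 63% were called at an adjusted p under 0.05, 32% higher and 31% lower in the VTA. A low-count filter left 39 short and 7 longer members in this test. Of the 39, 20 were lower and 1 was higher in the VTA, and of the 7, 1 was lower and 1 was higher. The median log2 fold change was -0.45 over the short members tested and 0.02 over all genes. Short features elsewhere in the genome, without the mitochondrial ones, had a median of -0.76, with 59 of 111 lower and 8 higher, so lower values in the VTA were also common among short features elsewhere. In the 4 saline rats alone 7 short members were called, all lower, and in the 6 fentanyl rats alone 16 were, all lower.

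The 1608 nt feature at 133552821 (ENSRNOG00000019584) had 9.32 to 18.6 CPM in the 14 NAc libraries. In the VTA the lowest library, female fentanyl replicate 2, had 15.1 CPM and the other 9 had 55.0 to 174 CPM. It was higher in the VTA in 10 of 10 rats, with a log2 fold change of 2.72 ± 0.32 (SE, adjusted p = 3e-05, edgeR). Leaving out each rat in turn gave 2.59 to 2.94. Apart from that 1 library, the groups did not overlap.

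The 583 nt feature was 517 ± 76.5 CPM in the NAc and 425 ± 86.0 CPM in the VTA (SD, n = 10 rats each). It was lower in the VTA in 8 of 10 rats, by a log2 change of -0.28 ± 0.08 (SE, adjusted p = 0.00468, edgeR). In the saline rats alone it was not called, at -0.13 on the log2 scale (adjusted p = 0.416, edgeR), and over the 17 settings tried the adjusted p ran from 0.00148 to 0.416. The 80 nt feature before it (ENSRNOG00000041744) had 47.8 ± 9.65 CPM in the NAc and 36.4 ± 7.28 CPM in the VTA (SD, n = 10 rats each) and was lower in 10 of 10 rats, with -0.38 ± 0.08 (SE, adjusted p = 0.000296, edgeR). Its fold change ran from -0.415 to -0.355 over the settings tried, and it was called in each of the 17. The 94 nt feature at 133682957 went the other way in 8 of 10 rats, with 0.29 ± 0.13 (SE), but its adjusted p of 0.0604 (edgeR) missed the threshold. Over the 17 settings tried, all edgeR fits apart from the DESeq2 setting, its adjusted p ran from 0.0105 to 0.304. It was called in 4 of them. These were without a low-count filter (adjusted p = 0.0316), without the rat block (0.0337), without male fentanyl rat 3 (0.38, adjusted p = 0.0105) and without female saline rat 1 (0.35, adjusted p = 0.0296), by edgeR.

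In the tandem stretch, 26 of the 28 features could be tested, 18 of which fell in the VTA and none rose, and 25 had a negative fold change. The median was -0.54. Among the 13 other short features tested, 2 were lower and 1 was higher, with a median of 0.04. Those at 133753217 and 133759956, which the gap limit leaves just outside the stretch, had -0.09 and -0.04 and were not called. The tandem and the other short features come from the same libraries, and the difference between these sets was not tested. The summed level of the tandem stretch was 201 ± 33.0 CPM in the NAc and 126 ± 24.2 CPM in the VTA (SD, n = 10 rats each), lower in 10 of 10 rats. All other short features together had 124 ± 29.7 and 113 ± 20.3 CPM and were lower in 5 of 10 rats. As a share of the short counts, the tandem stretch made up 57.4% to 66.5% in the NAc libraries and 50.2% to 55.2% in the VTA libraries, so the regions did not overlap in this share.

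The feature that leads the tandem stretch was among the short features that differed most between the regions. At 133770706 (ENSRNOG00000059106) the NAc libraries had 22.3 to 41.7 CPM and the VTA libraries 6.67 to 19.1 CPM, with no overlap; on plain library totals the ranges, 19.8 to 40.3 and 6.99 to 21.7 CPM, overlapped. The log2 fold change was -1.33 ± 0.15 (SE, adjusted p = 7.41e-07, edgeR) and the level was lower in 10 of 10 rats. The feature at 133780786 had -1.30 ± 0.30 (SE) and 4.86 against 2.02 CPM, and the order of these 2 was not stable: it had the larger fall in 6 of the 17 settings tried. The feature at 133795966 had -0.98 ± 0.22 (SE) and 6.18 against 3.08 CPM. It was not called in the saline rats alone (adjusted p = 0.185, edgeR), and over the 17 settings tried its adjusted p ran from 3.29e-05 to 0.185. The feature at 133785241 had -0.97 ± 0.20 (SE) and was lower in 10 of 10 rats. By contrast, the feature at 133768226, which opens the stretch, had -0.08 and the one at 133778119 had 0.06, neither called. Values near 0 thus stood beside large ones within the run.

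Outside the tandem stretch, the feature at 133857700 was lower in the VTA, by -0.80 ± 0.29 (SE, adjusted p = 0.0214, edgeR), although it was not called in the saline rats alone. It also lost its call without male fentanyl rat 2 (-0.72, adjusted p = 0.0549), male fentanyl rat 3 (-0.62, adjusted p = 0.0614) or female fentanyl rat 7 (-0.73, adjusted p = 0.0515), by the same edgeR test. The only short feature called higher was at 133893993 (ENSRNOG00000035557), with 1.62 ± 0.858 CPM in the NAc (SD, n = 14) and 2.26 ± 0.939 CPM in the VTA (SD, n = 10). It had 0.65 ± 0.28 (SE, adjusted p = 0.0494, edgeR) and was higher in 9 of 10 rats. It was called in only 4 of the 17 settings tried, over which its adjusted p ran from 0.0346 to 0.302, and leaving out any 1 of 8 of the 10 rats ended the call, with fold changes of 0.56 to 0.66. The 2 rats whose removal kept it were male fentanyl 3 and female saline 1. The minus-strand feature of 4815 nt, at 26.7 ± 3.94 and 29.5 ± 7.53 CPM (SD, n = 10 rats each), was not called, with 0.13 ± 0.12 (SE).

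**Figure D2:**
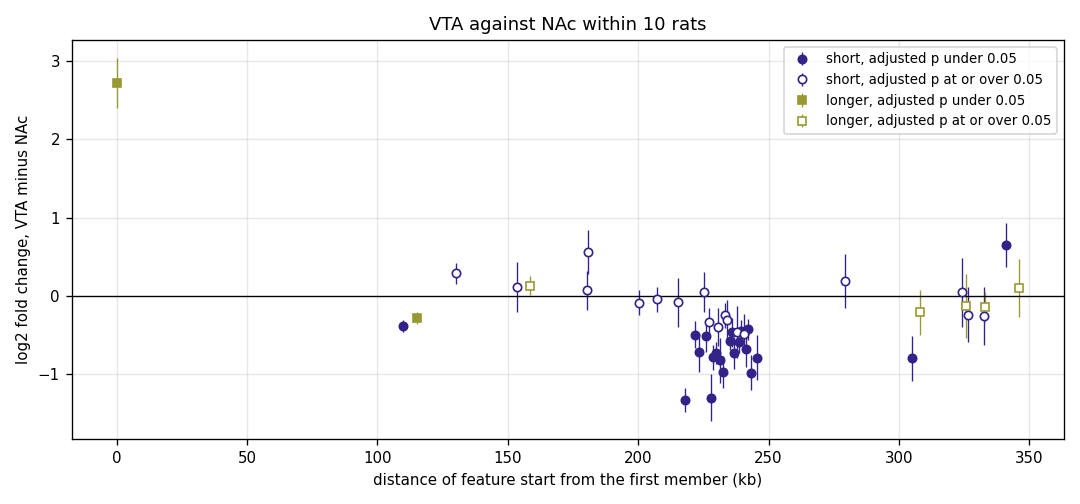
Log2 fold change of VTA minus NAc within 10 rats (vertical axis, bars are SE) for each member tested, against the distance of its start from the first member (horizontal axis, kb). Filled symbols have an adjusted p under 0.05: the first longer feature stands at 2.72, and 18 of 26 features of the tandem stretch lie below 0 and are called.

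Females and males were compared as the mean over both treatments, a contrast the choice of members did not use either. No member was called in either region. Over all genes 0.0906% were called in the NAc (12 of 13248) and 0.0764% in the VTA (11 of 14400). The 34 short members tested in the NAc had a median log2 difference, female minus male, of -0.05, and the 38 tested in the VTA had 0.03. At an unadjusted p under 0.05 there were 2 of 34 in the NAc and 1 of 38 in the VTA, and DESeq2 called 14 and 12 genes in all. The 583 nt feature differed by 0.08 ± 0.08 (SE) in the NAc and by -0.02 ± 0.12 (SE) in the VTA.

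The fentanyl values follow as a description. In the NAc, the summed level of the short features had a lower mean with fentanyl in females and a mean close to that of saline in males. In saline females it was 434 CPM in replicate 1, 317 in replicate 2 and 404 in replicate 4. In fentanyl females it was 246 in replicate 1, 234 in replicate 2, 310 in replicate 7 and 325 in replicate 8. The 2 highest values were saline and the 3 lowest were fentanyl, and the groups overlapped at saline replicate 2. The group means were 385 ± 60.8 (SD, n = 3) and 279 ± 45.4 CPM (SD, n = 4), a log2 ratio of -0.46. Males had 335 ± 24.8 CPM with saline (SD, n = 3) and 341 ± 40.4 CPM with fentanyl (SD, n = 4), a log2 ratio of 0.03, with 306 to 350 CPM inside 283 to 377 CPM.

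In the VTA all 6 fentanyl libraries were below all 4 saline libraries for this sum, a separation that depended on the scaling, as given below. Saline females had 261 CPM in replicate 1 and 326 in replicate 2, and fentanyl females had 211 in replicate 1, 163 in replicate 2 and 229 in replicate 7. Saline males had 264 CPM in replicate 1 and 254 in replicate 3, and fentanyl males had 250 in replicate 1, 231 in replicate 2 and 201 in replicate 3. The log2 ratios of means were -0.55 in females and -0.19 in males. Leaving out each library in turn gave -0.70 to -0.38 in females, the latter without saline replicate 2, and -0.26 to -0.11 in males, the latter without fentanyl replicate 3. Without fentanyl female replicate 2 the value in females was -0.41. In the NAc females, and in both sexes of the VTA, fentanyl libraries also had the higher mitochondrial shares given above, with no overlap with saline. The part of the mitochondrial share in these values was not tested. With totals taken outside the mitochondrial chromosome the log2 ratios were -0.52 in NAc females, 0.04 in NAc males, -0.56 in VTA females and -0.19 in VTA males. On that scale the VTA groups no longer separated: male fentanyl replicate 1, at 347 CPM, lay above male saline replicate 3, at 346 CPM.

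**Figure D3:**
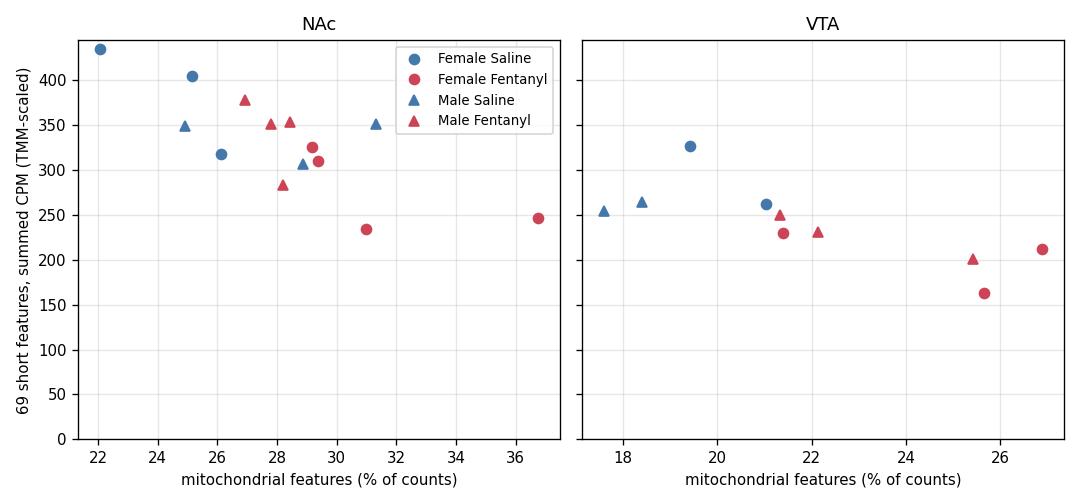
Summed level of the 69 short features (vertical axis, CPM) against the share of counts on mitochondrial features (horizontal axis, %) for each NAc and VTA library, coloured by treatment and shaped by sex. The NAc fentanyl females lie at 29.2% or more and at 325 CPM or less, and on this scale all VTA fentanyl libraries lie to the right of and below the VTA saline libraries.

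The 583 nt feature had a lower mean with fentanyl in each sex of each region. In NAc females it had 695, 548 and 608 CPM with saline and 471, 453, 527 and 494 CPM with fentanyl, with no overlap. In NAc males it had 555, 471 and 606 CPM with saline and 436, 466, 547 and 536 CPM with fentanyl, which overlapped. In the VTA it had 455 to 562 CPM in the 4 saline and 300 to 424 CPM in the 6 fentanyl libraries, with no overlap. The log2 fold changes were -0.33 ± 0.11 in NAc females, -0.13 ± 0.11 in NAc males, -0.47 ± 0.16 in VTA females and -0.47 ± 0.16 in VTA males (SE).

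The short counts were also set against those of the 583 nt feature. Per count of the 583 nt feature there were 0.622 ± 0.0433 short counts in saline and 0.572 ± 0.0662 in fentanyl NAc females (SD, n = 3 and 4), and the ranges, 0.578 to 0.664 and 0.517 to 0.658, overlapped. NAc males had 0.626 ± 0.119 and 0.687 ± 0.0454 (SD, n = 3 and 4). Their ranges, 0.506 to 0.744 and 0.650 to 0.751, overlapped. VTA females had 0.577 ± 0.00406 and 0.553 ± 0.0163, and VTA males had 0.504 ± 0.00353 and 0.612 ± 0.0488 (SD, n = 2 and 3 in each sex). In VTA females the ranges were 0.574 to 0.580 and 0.542 to 0.572, and in VTA males 0.501 to 0.506 and 0.579 to 0.668. Neither pair overlapped, and the ratio was lower with fentanyl in VTA females and higher in VTA males. On the log2 scale, the level of the 583 nt feature was correlated across libraries with that of each of 42 short features. The median correlation was 0.39 over the 14 NAc libraries and 0.49 over the 10 VTA libraries. The correlation was positive for 38 and 39 of the 42. Group means were not taken out, so differences between groups, including fentanyl against saline, are part of these values. These libraries share their scaling and depth, and the values are given as a description.

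**Figure D4:**
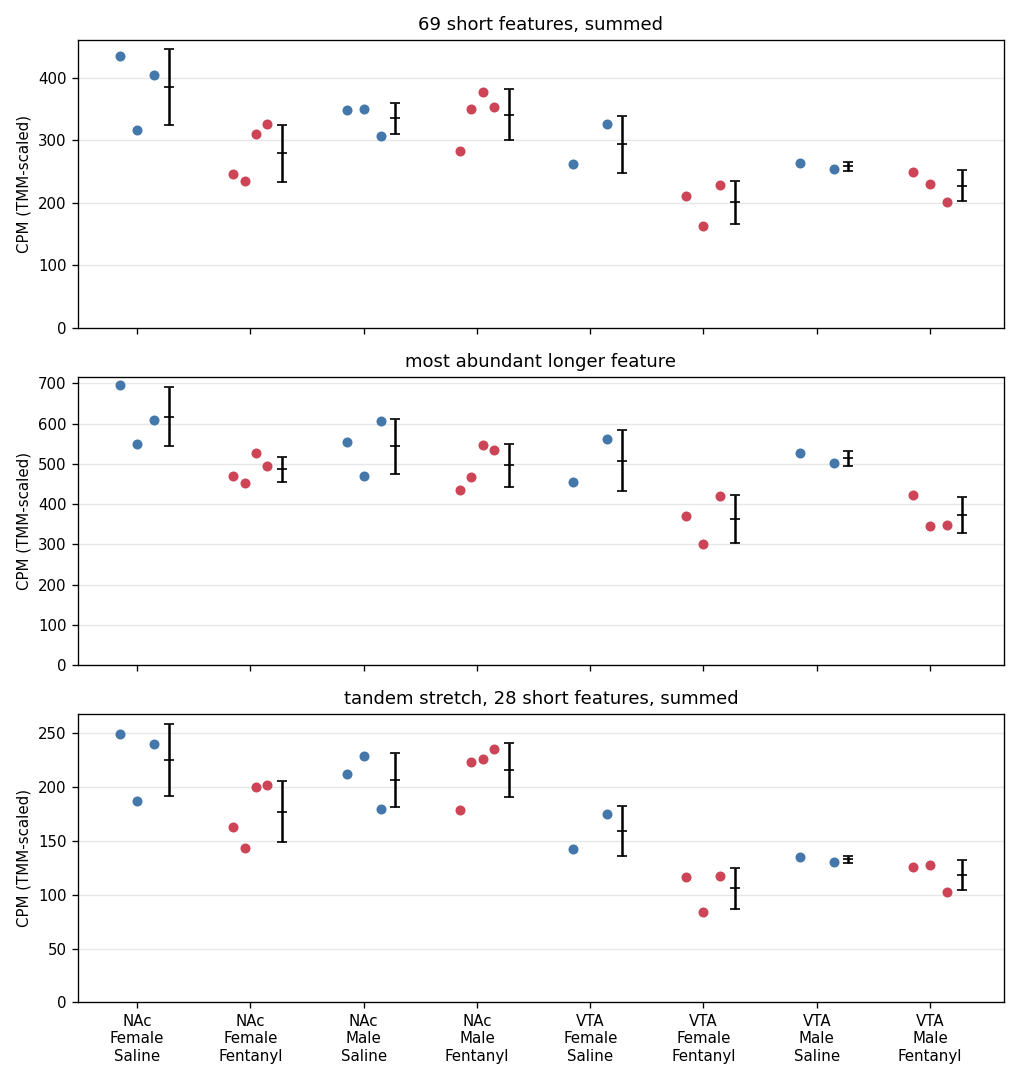
Level per library (vertical axis, CPM) in the 8 groups of region, sex and treatment for the 69 short features summed, the most abundant longer feature, of 583 nt, and the 28 features of the tandem stretch summed, with dots for libraries and bars for mean ± SD. In NAc females the short sum goes from 385 CPM with saline to 279 CPM with fentanyl, and the tandem sum is lower in every VTA group mean than in any NAc group mean.

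Of the single short features, 34 passed the low-count filter in the NAc. In females 6 were called lower with fentanyl and none higher, where 5.45% of all 13248 genes were called lower and 13.5% in either direction, a contrast the rule used, so nothing is read from the count. The called features were at 133662524, 133682957, 133733240, 133753217, 133782565 and 133787924, of which the last 2 belong to the tandem stretch. The count was 2 without saline female replicate 1 or replicate 4. Of the 6 longer members tested, the 583 nt feature was called lower, and this call was lost in 7 of the 14 fits that left out 1 library: fentanyl female replicate 1, 2 or 8, saline female replicate 1 or 4, fentanyl male replicate 7 or saline male replicate 1. With the sexes averaged, 1 short member was called lower, where 2.99% of genes were called lower, and 0 longer members were called, where 7.51% of genes were called. The short count was 0 without saline male replicate 1 or 4 or saline female replicate 1 or 4, and 2 without fentanyl male replicate 3 or fentanyl female replicate 8; the longer count was 1 without saline male replicate 3. In males, 0 members were called, where 0% of genes were called and 850 had an unadjusted p under 0.05; DESeq2 called 4. In the VTA, 0 of 38 short and 0 of 7 longer members were called in females, in males or on average, where 0% of 14400 genes were called. On average 1271 genes had an unadjusted p under 0.05 there, and DESeq2 called 38 genes.

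The 80 nt feature at 133662524 was the one called in females and on average in the NAc. Saline females had 70.6, 49.1 and 63.0 CPM and fentanyl females had 37.6, 36.3, 44.9 and 42.5 CPM, with no overlap. Saline males had 50.4, 49.6 and 48.6 CPM and fentanyl males had 40.3, 49.2, 49.5 and 43.2 CPM. Log2 fold changes were -0.59 ± 0.13 in females and -0.11 ± 0.13 in males (SE). In VTA females it had 43.5 and 48.4 CPM with saline and 27.9, 22.5 and 34.8 CPM with fentanyl, and in VTA males 40.0 and 37.2 against 37.6, 35.3 and 36.7 CPM.

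Between the 583 nt feature and the tandem stretch, the short features at 133682957, 133733240 and 133753217 were also lower with fentanyl in NAc females, without overlap. All other short members there overlapped. Among these, the weak features at 133699509 and 133705920 had a higher mean with fentanyl. The 94 nt feature at 133682957 had 22.3, 15.3 and 23.5 CPM with saline and 10.5, 10.6, 12.3 and 12.6 CPM with fentanyl. The 71 nt feature at 133753217 had 13.9, 13.1 and 16.5 CPM with saline and 3.98, 6.89, 7.58 and 9.52 CPM with fentanyl. Neither overlapped. In NAc males the fold changes of these features were 0.04 ± 0.20 and 0.28 ± 0.25 (SE) on the log2 scale. The leading tandem feature at 133770706 did not share this pattern: it had 35.2, 22.3 and 33.2 CPM in saline and 25.3, 29.4, 37.9 and 33.7 CPM in fentanyl NAc females, with 0.07 ± 0.18 (SE).

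Over the members that passed the filter, which are not all of them, 30 of 34 short features had a negative fold change in NAc females and 13 of 34 in NAc males. The medians were -0.50 and 0.07, against 0.00 for all genes in both and 0.09 and 0.02 for short features elsewhere. In the VTA 34 of 38 were negative in females and 28 of 38 in males, with medians of -0.59 and -0.27, against 0.01 for all genes in both and -0.10 and -0.01 for short features elsewhere. The members were picked for being lower, so these medians are fixed in part by that choice. The female effect minus the male effect in the NAc had a median of -0.49 over the short members, and 0 of 34 short and 0 of 6 longer members were called, where 0.77% of all genes were called. At an unadjusted p under 0.05 there were 8 of the 34, and 2 short members were called without a low-count filter or without fentanyl female replicate 8.

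**Figure D5:**
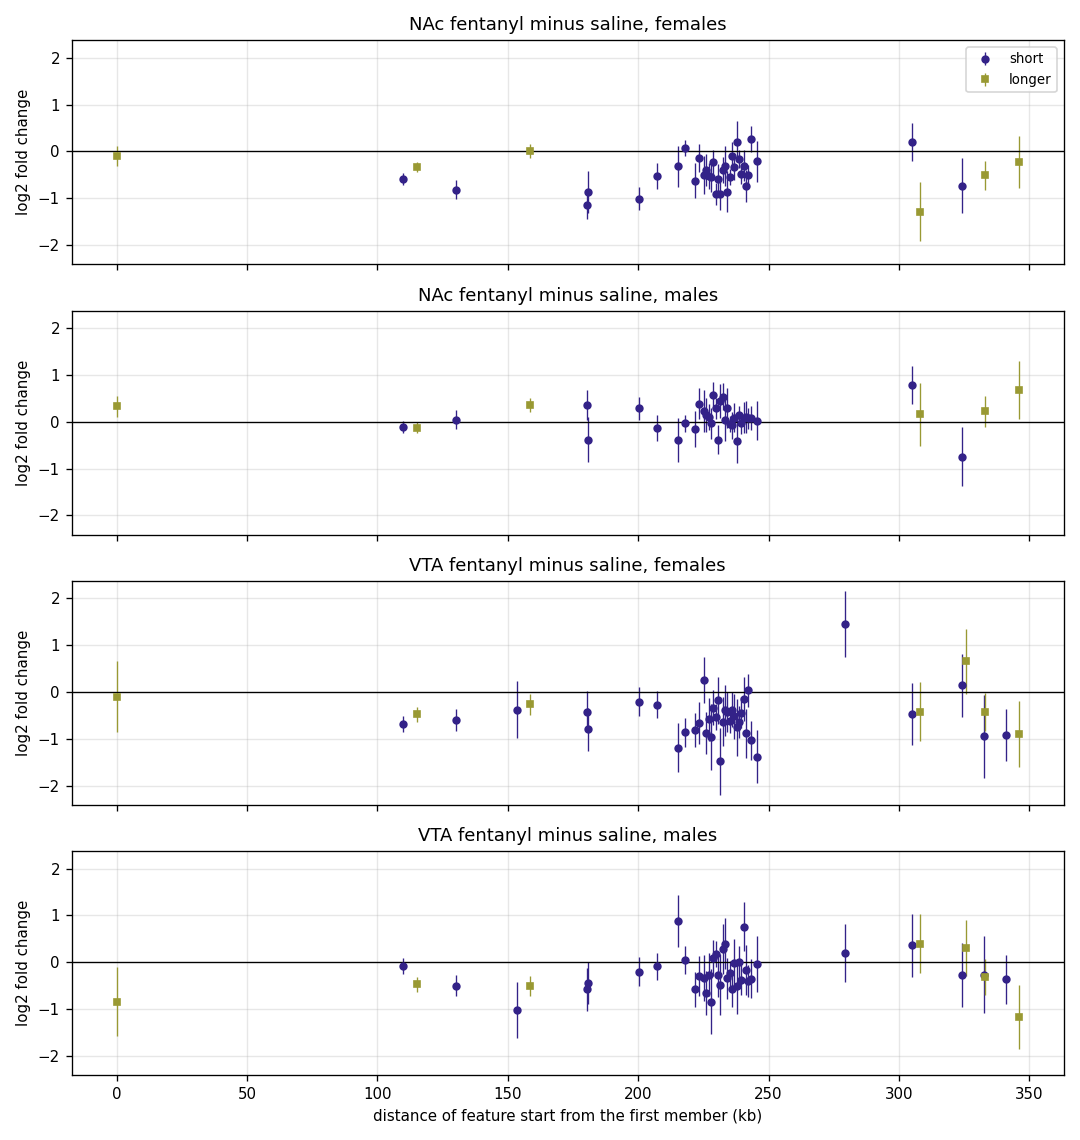
Log2 fold change of fentanyl minus saline (vertical axis, bars are SE) for each member that passed the low-count filter, by region and sex, against the distance of its start from the first member (horizontal axis, kb). In NAc females 30 of 34 short features lie below 0, and in NAc males 13 of 34 do.

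Counting all 69 short features without a filter, the mean was lower with fentanyl for 55 in NAc females, 30 in NAc males, 56 in VTA females and 46 in VTA males. All fentanyl libraries lay below all saline libraries for 8, 0, 21 and 6 of them, and above for 0, 4, 1 and 4, in the same order. Among all 20490 features with at least 10 counts, 8.98%, 3.6%, 10.8% and 11.4% lay wholly below, and 9.19%, 3.4%, 9.25% and 9.99% wholly above. The rule used these contrasts, so nothing is read from these counts. With 2 saline rats per sex in the VTA, such gaps carry little weight. Of the 18 longer features the mean was lower for 15, 6, 11 and 10. In the NAc the longer features other than the 583 nt one did not all move with it. In NAc females the 1608 nt feature at 133552821 had -0.10 ± 0.21 and the minus-strand feature of 4815 nt had 0.01 ± 0.15 (SE, log2). The latter had 30.1, 25.5 and 25.1 CPM with saline and 19.5, 26.4, 29.2 and 31.7 CPM with fentanyl, which overlapped. In NAc males the 1608 nt and 4815 nt features had 0.33 and 0.36, against -0.13 for the 583 nt feature. In the VTA these features all had negative fold changes, none called. In the same order they were -0.84, -0.51 and -0.47 in VTA males, and -0.10, -0.27 and -0.47 in VTA females. The 1608 nt feature had 94.6 and 55.0 CPM in saline and 62.0, 15.1 and 130 CPM in fentanyl VTA females, which overlapped. The 15.1 CPM was that of fentanyl replicate 2, the library that stood apart at this feature. How far the sign of the -0.10 rests on that library was not tested.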

How the data were processed

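The 24 deposited tables, 1 per library, hold raw read counts per Ensembl rat gene, not normalized, per the file headers. Per the submitters' processing notes, the authors used STAR 2.5.2b, Trimmomatic 0.36, DESeq2, Subread 1.5.2 and featureCounts, in an order that the notes leave out. The sources used here do not state the strand setting, the annotation release or what was done with multiply aligned reads. If repeated copies share reads, the authors' counting could split or drop them, so levels of single tandem features are uncertain.

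The members, comparisons and lists were chosen with earlier results of these data known. Groups came from the labels. edgeR 4.0.16 in R 4.3.3 was run on all genes: after TMM scaling and the filterByExpr low-count filter, dispersions were estimated robustly and the quasi-likelihood F test (two-sided, robust) was applied. A gene was called where its p, adjusted by Benjamini-Hochberg, was under 0.05. The 4 groups of sex and treatment of a region shared a fit; VTA minus NAc used 20 libraries of 10 rats with rat as a block. Standard errors were derived from the F statistic. CPM used TMM-scaled totals over all 24 libraries, and levels between genes were compared per kb. Named features were the 8 longer and 8 short ones with the most counts, plus up to 4 short ones with the lowest and highest fold change of NAc fentanyl minus saline and of VTA minus NAc. Other features were named after their values were seen: 133733240, 133782565, 133768226 and 133778119. The gene lists chosen by symbol (imprinted genes elsewhere, miRNA and snoRNA machinery, regulators, cell type markers) were not analysed here, because no identifier could be paired with a symbol. No 2 libraries of a group were copies: over 26 pairs the chi-square divided by its degrees of freedom ran from 2.38 to 18.4.

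The fits were tested on simulated data with log2 changes of 1 and 2. For NAc females, over 13041 genes, 69.7% and 94.9% of the changed genes were called. For VTA minus NAc, over 14363 genes, 85.3% and 94.8% were called. For fentanyl averaged over sexes, 90.8% and 97.0% were called in the NAc, and 61.9% and 86.9% in the VTA. False calls made up 5.23%, 4.44%, 4.15% and 11.0% of all calls in these fits, in the order given. Alternatives were RLE scaling, no low-count filter, DESeq2 1.42.0, the replicate block, saline or fentanyl rats alone, other library totals, and leaving out each library or rat.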

Additional observations from a re-analysis of the deposited data

Results flagged for a closer look

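Over 60 groups of named features and sums with at least 4 libraries, 1 held a library set apart from the rest by Dixon's criterion. At the short feature starting at 133795080, in the tandem stretch, NAc male fentanyl replicate 1 had 10.8 CPM, while the other 3 libraries of its group had at least 14.7 CPM. Chance sets apart about 1 in 20 such groups.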

How the results depend on the processing

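Labels give rats of different groups the same numbers. The residuals of same-numbered libraries had a mean correlation of -0.0146 over 12 NAc and 0.00144 over 10 VTA pairs. No pairing by number was seen, but such a check could not exclude one. The groups are small, and where a group holds 2 libraries their residuals are mirror images. With the replicate block, 341 genes and 0 short members were called for NAc fentanyl averaged over sexes, 0 longer members in NAc females (median -0.51), 236 genes and 2 short members for the NAc female minus male effect, and 1 gene in the VTA; the VTA sex difference of the longer members had a median of -0.52. Without a low-count filter, NAc fentanyl averaged over sexes called 1 longer member (median -0.20), NAc males 46 genes, the NAc female minus male effect 388 genes and 2 short members, the VTA average 499 genes and 2 longer members, and the VTA sex difference 163 genes and 1 longer member. DESeq2 called 1 longer member, 4 genes, 250 genes (longer median -0.34) and 38 genes for the first 4 of these. In saline rats alone, VTA minus NAc called 7 short and 1 longer members. On plain library totals the summed longer level of NAc females had a log2 ratio of -0.52.

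Leaving out each library gave 315 to 1299 genes, 0 to 2 short and 0 to 1 longer members for NAc fentanyl averaged over sexes. It gave 755 to 2018 genes, 2 to 7 short and 0 to 1 longer members in NAc females, and 0 to 2 genes in NAc males, where the longer median ran from 0.13 to 0.43. For the NAc female minus male effect it gave 20 to 299 genes, 0 to 2 short members and a longer median of -0.72 to -0.35. For the VTA average it gave 0 to 2 genes; where it left 1 saline library in a group, that library was assumed to vary like the others. The cause of these moves was not tested. For VTA minus NAc, values not called changed sign in fentanyl rats alone at 133711154 (-0.062), 133898795 (-0.30), 133759956 (0.11) and 133753217 (0.016), and in saline rats alone at 133877124 (-0.40). Leaving out each rat gave -0.050 to 0.40 at 133898795, -0.34 to 0.053 at 133878578, -0.15 to 0.046 at 133759956 and -0.23 to 0.28 at 133877124. Of the counts, medians and summed ratios, 161 of 186 values under another setting and 504 of 548 with a library or rat left out stayed within 1.5 times the count, or within 1 SD between replicates, of the reported value. Depth limits the weak features: 27 short ones had under 100 counts in all.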
